A study of Mus musculus with 3 samples.

Results

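The cluster of miR-322, miR-503, miR-351, miR-542, miR-450a and miR-450b is a group of microRNA (miRNA) hairpins on the mouse X chromosome. It was followed here in exosomes, the small membrane vesicles that cells release. Its members, chosen by name and not by level, were 10 mature strands, namely both strands of miR-322, miR-503, miR-351 and miR-542 and the 5p strands of miR-450a and miR-450b. All 10 were listed among the 1915 mature mouse miRNAs of the tables. Of the 10 strands, 8 had counts in all 3 libraries, 1 (miR-351-3p) in 2 of them and 1 (miR-542-5p) in none.

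There was 1 group with 3 libraries, called libraries 1, 2 and 3 here, and no treated or control counterpart. What the letters CHMP in the sample titles stand for is not stated, so a condition they may name is unknown. Each was made from vesicles shed by bone-marrow-derived macrophages of wild-type adult C57BL/6 mice. Marrow cells were grown for 24 h with M-CSF, a cytokine under which they become macrophages, and vesicles were then collected over 72 h in medium with exosome-depleted serum. The pellet came from ultracentrifugation, so RNA that sediments with vesicles is included, and no library of the parent cells was analysed here. Separate cultures or animals are not stated for the libraries in the labels, so SDs and p-values measure how these libraries differ from each other, which may be technical in part or whole. Library 1 stood apart from the others, with a TMM scaling factor (which centres the ratios of most miRNAs) of 1.41 against 0.919 and 0.774, so values that rest on it are also given without it.

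A miRNA hairpin is cut into 2 strands, 5p and 3p, of which usually only one is kept by an Argonaute protein and guides it to messenger RNAs. Target choice rests mainly on the seed, bases 2 to 8 of the strand. MiR-322 is the mouse counterpart of human miR-424, which is raised by the transcription factor PU.1 during monocyte and macrophage maturation. Together with miR-503 it belongs to the wider miR-15/16 group, known for slowing the cell cycle, and both are also known from muscle differentiation. MiR-351-5p carries the seed of the miR-125 family, and miR-542-3p is known as a repressor of the survival gene survivin (Birc5).

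The strands are shown first with the seed in capitals (mmu- marks mouse), because the seeds decide which of them can be grouped. All 10 matched a mature sequence in RefSeq (build GRCm38.p6), and the sequences are from there.
mmu-miR-322-5p: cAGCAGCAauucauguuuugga
mmu-miR-503-5p: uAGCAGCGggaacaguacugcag
mmu-miR-351-5p: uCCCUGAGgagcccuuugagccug
mmu-miR-542-3p: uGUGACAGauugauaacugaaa
mmu-miR-450a-5p: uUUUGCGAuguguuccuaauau
mmu-miR-450b-5p: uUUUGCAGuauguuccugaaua
mmu-miR-322-3p: aAACAUGAagcgcugcaacac
mmu-miR-503-3p: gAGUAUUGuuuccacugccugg
mmu-miR-351-3p: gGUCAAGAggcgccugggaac
mmu-miR-542-5p: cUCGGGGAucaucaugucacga
No 2 members had the same seed. MiR-322-5p and miR-503-5p shared bases 2 to 7 and parted at the last seed base, A8G, counted from 1 at the 5′ end of miR-322-5p. MiR-450a-5p and miR-450b-5p were identical at 15 of 22 positions, and the first difference, G7A counted from the 5′ end of miR-450a-5p, lay inside the seed. Each member was at least 5 edits (substitutions, insertions or deletions) away from every other mature mouse miRNA in RefSeq, and the nearest pair was miR-450a-5p with miR-450b-5p.

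In the GRCm38 annotation (GENCODE M21) the 7 hairpins lie on the minus strand of chromosome X between 53047997 and 53054349, a stretch of 6353 bases. In the direction of transcription they run Mir322 (53054255 to 53054349), Mir503 (53053984 to 53054054), Mir351 (53053255 to 53053353), Mir542 (53049403 to 53049487), Mir450-2 (53048299 to 53048367), Mir450-1 (53048154 to 53048244) and Mir450b (53047997 to 53048078). A gap of 3767 bases between Mir351 and Mir542 splits the cluster into 2 blocks. The first 3 hairpins lie within the RefSeq noncoding gene C430049B03Rik (53053112 to 53057190), and the other 4 lie outside it. None of the 7 overlaps another gene in GENCODE M21. MiR-450a-5p has the same sequence in Mir450-1 and Mir450-2, so its counts cannot be divided between these copies.

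**Figure D1:**
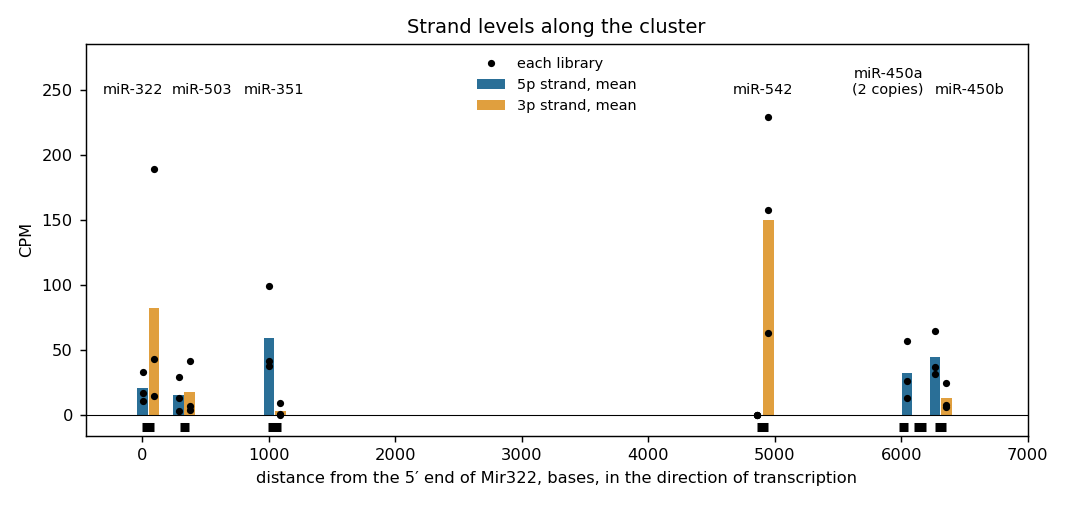
Strand levels along the cluster. Bars give the mean counts per 1000000 miRNA counts (CPM) of the 5p strand (blue) and the 3p strand (orange) over 3 libraries, points give each library, and black blocks mark the hairpins at their distance in bases from the 5′ end of Mir322 (bars are widened and set side by side to be visible). The tallest bar is miR-542-3p, at a mean of 149.8 CPM, and miR-542-5p stands at 0.

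The cluster made up a very small part of the exosomal miRNAs, 0.0423% ± 0.0249 of miRNA counts (SD, n = 3), or 0.0290% without library 1. Such a share cannot tell fewer vesicles that carry a strand from less of it per vesicle. Library 1 had 2079 counts of the 10 strands, library 2 had 947 and library 3 had 639. Scaled to the miRNA totals of 3008995, 2489984 and 3208617 counts, this was 0.0691% (Wilson 95% interval 0.0662 to 0.0721), 0.0380% (0.0357 to 0.0405) and 0.0199% (0.0184 to 0.0215). The summed level was thus highest in library 1 and lowest in library 3, at 691, 380.3 and 199 CPM, and these intervals did not overlap. All intervals and limits given here cover counting error only, since reads amplified by PCR are not independent molecules. At these depths a count of 0 allows a level of up to 0.997, 1.20 and 0.935 CPM (3 counts) in libraries 1, 2 and 3.

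The cargo was unequal within the cluster. MiR-542-3p led in each library and took 33.1%, 41.4% and 31.8% of the cluster's counts. The 3 leading strands of a library held 74.8%, 67.7% and 71.0%. Which strands followed miR-542-3p differed, with miR-322-3p second in library 1, miR-450a-5p in library 2 and miR-351-5p in library 3. By summed level the block of miR-322, miR-503 and miR-351 stood at 385, 135 and 72.9 CPM, and the block of miR-542, miR-450a and miR-450b at 306, 246 and 126 CPM. The first block was above the second in library 1 and below it in libraries 2 and 3.

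MiR-322-5p is the strand that corresponds to human miR-424-5p. It had 51, 83 and 35 counts, or 16.9, 33.3 and 10.9 CPM, in libraries 1, 2 and 3, averaging 20.4 ± 11.6 CPM (SD, n = 3). It was highest in library 2, and the 95% counting intervals of libraries 1 and 3 overlapped. It ranked 240, 171 and 233 among the 1915 miRNAs listed. The opposite strand, miR-322-3p, had 568, 107 and 47 counts, or 189, 43.0 and 14.6 CPM. Its level in library 1 was 4.39 times that in library 2 and 12.9 times that in library 3, and leaving out library 1 brought the mean from 82.1 to 28.8 CPM. Both strands come from 1 hairpin, and only miR-322-3p was highest in library 1.

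MiR-503, the next hairpin, is known from vascular and muscle cells for holding back cell division. MiR-503-5p had 88, 33 and 9 counts, or 29.2, 13.3 and 2.80 CPM, and miR-503-3p had 125, 18 and 11 counts, or 41.5, 7.23 and 3.43 CPM. Both strands were highest in library 1 and lowest in library 3. Their means of 15.1 and 17.4 CPM were 8.03 and 5.33 without library 1. With 9 counts in library 3, the level of miR-503-5p there carried a counting interval from 1.28 to 5.32 CPM.

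MiR-351 closes the first block. Its 5p strand had 299, 93 and 132 counts, or 99.4, 37.3 and 41.1 CPM. Libraries 2 and 3 were alike within counting error, and library 1 was above both, so that the mean of 59.3 CPM was 39.2 without it. MiR-351-3p had 27, 1 and 0 counts. Against the limit of 3 counts its level in library 1 was at least 9.60-fold higher than in library 3.

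In the second block miR-542-3p had 688, 392 and 203 counts, or 229, 157 and 63.3 CPM, averaging 149.8 ± 83.0 CPM (SD, n = 3). It was the highest member in each library, and it ranked 111, 108 and 132 among all miRNAs. MiR-542-5p had 0 counts in each library.

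The miR-450 strands did not share a pattern, although their sequences are close. MiR-450a-5p had 39, 142 and 83 counts, or 13.0, 57.0 and 25.9 CPM, lowest in library 1 and highest in library 2. Leaving out library 2 brought the mean from 32.0 to 19.4 CPM. MiR-450b-5p had 194, 78 and 119 counts, or 64.5, 31.3 and 37.1 CPM, highest in library 1. MiR-450b-5p was thus 4.97 times miR-450a-5p in library 1, 0.549 times in library 2 and 1.43 times in library 3. MiR-450b-3p, the other strand of the miR-450b hairpin and no member, had 75, 20 and 19 counts. The 3p strands of both miR-450a copies, miR-450a-1-3p and miR-450a-2-3p, had 0 counts in all libraries. MiR-450a-1-3p differs from miR-450b-3p at only 2 of 22 positions (G19A and C20A, counted from the 5′ end of miR-450b-3p). The sources used here do not say how the authors assigned reads that match such pairs.

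**Figure D2:**
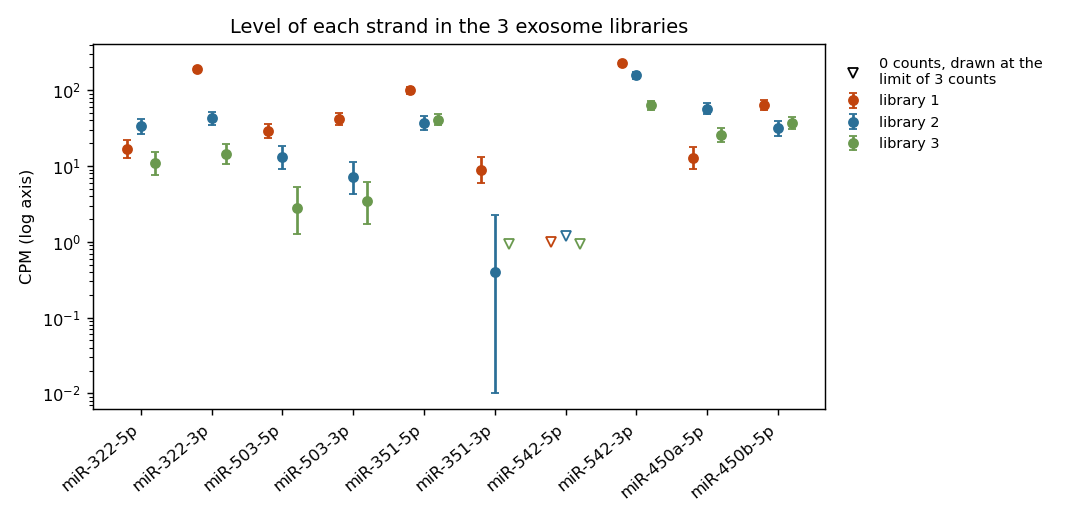
Level of each of the 10 strands in libraries 1, 2 and 3, in CPM on a log axis. Bars are exact 95% Poisson intervals of the counts, and open triangles mark 0 counts, drawn at the limit of 3 counts. MiR-450a-5p is lowest in library 1 at 13.0 CPM, while miR-322-3p is highest there at 189 CPM.

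By the mean the order ran miR-542-3p, miR-322-3p, miR-351-5p, miR-450b-5p, miR-450a-5p, miR-322-5p, miR-503-3p, miR-503-5p, miR-351-3p, miR-542-5p. Only 3 of the 9 steps between neighbours held in all 3 libraries and exceeded their own SD on the scale of log2(CPM + 1). MiR-542-3p stood above miR-322-3p by 1.39 ± 0.97, miR-351-5p above miR-450b-5p by 0.34 ± 0.25, and miR-503-5p above miR-351-3p by 2.29 ± 0.93 (SD, n = 3 each). The other neighbours could not be told apart by this spread. For miR-322-3p and miR-351-5p the mean difference of logs was even negative, at -0.10 ± 1.20, since the place of miR-322-3p rested on library 1.

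The use of the 2 strands of a hairpin was compared next, because a ratio within a hairpin does not depend on how libraries are scaled. The hairpins are shown as RNA with the annotated mature strands in capitals, the 5p strand first. Mir322 and Mir503 are given as hairpins that yielded both strands, and Mir542 as one that yielded only the 3p strand.
Mir322: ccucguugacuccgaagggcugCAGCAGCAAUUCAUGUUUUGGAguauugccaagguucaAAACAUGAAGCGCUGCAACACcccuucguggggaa
Mir503: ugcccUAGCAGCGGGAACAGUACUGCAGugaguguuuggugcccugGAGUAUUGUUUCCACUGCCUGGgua
Mir542: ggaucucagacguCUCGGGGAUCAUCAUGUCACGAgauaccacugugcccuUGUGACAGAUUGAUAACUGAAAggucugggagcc
The 5p strand made up 8.24% of miR-322 counts in library 1 (Wilson 95% interval 6.32 to 10.7, 619 counts), 43.7% in library 2 (36.8 to 50.8, 190 counts) and 42.7% in library 3 (32.5 to 53.5, 82 counts). For miR-503 it made up 41.3%, 64.7% and 45.0%, on 213, 51 and 20 counts. Both strands of these hairpins were thus present in every library, and only miR-322 in library 1 was strongly unequal. In miR-351 the 5p strand dominated, at 91.7%, 98.9% and 100%, where the 0 counts of miR-351-3p in library 3 allow a 3p share of up to 2.27%. MiR-542 was the opposite. Its 3p strand stood 229-fold, 131-fold and 67.7-fold above the limit of 3 counts for the 5p strand in libraries 1, 2 and 3. In miR-450b the 5p strand held 72.1%, 79.6% and 86.2%.

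**Figure D3:**
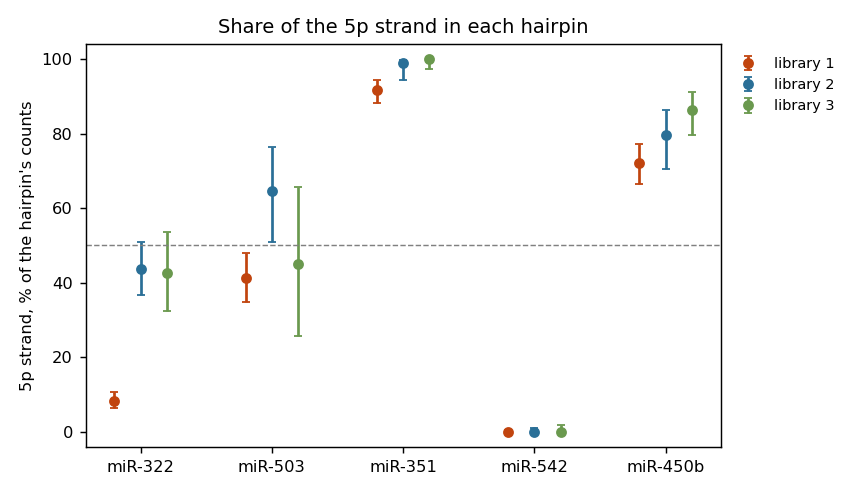
Share of the 5p strand in the counts of each hairpin, in percent, for libraries 1, 2 and 3 with Wilson 95% intervals. The dashed line marks equal strands. MiR-322 stands at 8.24% in library 1 and near equality in the others, while miR-351 and miR-542 keep to opposite ends.

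Whether the strands of a hairpin were unequal across the libraries was tested with edgeR's quasi-likelihood test on all 157 hairpins with both strands in the tables and at least 60 counts, with Benjamini-Hochberg adjustment over all of them. The 5p strand was higher in 41.4% of these hairpins and the 3p strand in 38.9% (either one in 80.3%), at an adjusted p below 0.05. Of the 5 hairpins of the cluster 2 passed, miR-351 toward the 5p strand (log2 ratio 5.51, adjusted p = 1.59e-05, in 3 of 3 libraries) and miR-542 toward the 3p strand (adjusted p = 2.52e-11, in 3 of 3 libraries). MiR-322 did not pass, with a log2 ratio of 5p to 3p of -1.35 (edgeR adjusted p = 0.202), although the 3p strand had more counts in 3 of 3 libraries. Nor did miR-503, at 0.021 (edgeR adjusted p = 0.990), whose sign depended on which libraries were used. MiR-450b was at 1.98, with the 5p strand higher in 3 of 3 libraries, and edgeR's adjusted p was 0.0547. It passed without library 1 (edgeR adjusted p = 0.00362) and with DESeq2's Wald test (adjusted p = 0.0226). It did not pass without library 2 (edgeR adjusted p = 0.321) or without library 3 (edgeR adjusted p = 0.324). Nor did it pass without a term for library (edgeR adjusted p = 0.101) or without the minimum of 60 counts (edgeR adjusted p = 0.0934).

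Whether the strand shares differed among the libraries was tested by a chi-square test of strand by library, which compares these libraries and not conditions. It called 93.8% of the 81 hairpins with large enough counts. All 3 hairpins of the cluster that could be tested were among them, miR-322 with an adjusted p of 3.39e-33, miR-450b with 0.00577 and miR-503 with 0.0120. A share of calls this close to the background is no result about the cluster. The size of the movement was greatest in miR-322, whose ratio of 3p to 5p was higher in library 1 than in the mean of libraries 2 and 3 by 3.07 on the log2 scale. It was 19th in size among the 81 hairpins, whose median size was 1.71. For miR-450b and miR-503 it was 0.91 and 0.79, below that median. The ratio moved toward the 3p strand in library 1 in many hairpins, with a median signed movement of 0.97. Between libraries 2 and 3 alone the shares of miR-322 were alike (adjusted p = 0.891), and none of the 3 hairpins passed, also at an unadjusted p of 0.05 (0 of 3), where 43 of 84 hairpins of the whole table did after adjustment.

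How far the levels differed among libraries was tested for each miRNA with at least 30 counts in all, by a chi-square test of its counts in proportion to the library totals. P-values were adjusted over 353 miRNAs by the Benjamini-Hochberg method. It called 318 of them (90.1%), and all 8 members tested were called, from miR-322-3p (adjusted p = 5.13e-138) to miR-322-5p (adjusted p = 9.65e-09). The test weighs counting error only and compares these libraries, not conditions. MiR-351-3p and miR-542-5p had too few counts to be tested. Without library 1, miR-351-5p (adjusted p = 0.532) and miR-450b-5p (adjusted p = 0.304) no longer differed beyond counting error, and 5 of the 7 members then tested were called, beside 177 of 288 (61.5%) of all miRNAs in that test. Libraries 2 and 3 therefore still differed in miR-322-5p, miR-322-3p, miR-503-5p, miR-542-3p and miR-450a-5p.

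Library 1 stood apart from the others in the series as a whole. Of the 353 miRNAs 60.3% were highest in library 1 and 38.2% were more than 2-fold above both other libraries, while 27.5% were lowest there. Of the 8 tested members 6 were highest in library 1, and miR-450a-5p was lowest there. More than 2-fold above both other libraries were 4 of 8, namely miR-322-3p, miR-503-5p, miR-503-3p and miR-351-5p. The median member was higher in library 1 by 1.05 against library 2 and by 1.54 against library 3 on the scale of log2(CPM + 1), where the median of all tested miRNAs was 0.72 and 0.96. Between libraries 2 and 3 the median member was higher in library 2 by 1.21, against 0.21 over all tested.

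These directions depend in part on scaling. Under TMM factors the log2 ratios of library 1 to library 2 fell by 0.61, those of library 1 to library 3 by 0.86, and those of library 2 to library 3 by 0.25. With TMM factors, and likewise with DESeq2 size factors, 3 of the 24 ratios of the 8 members turned, namely library 1 to library 3 for miR-322-5p and miR-450b-5p and library 1 to library 2 for miR-542-3p. The 4 members more than 2-fold higher by miRNA totals remained the highest in library 1 under TMM factors, and miR-450a-5p remained the lowest there, joined by miR-322-5p. Highest in library 1 were then 4 of 8 members and 45.6% of all tested miRNAs. The shares of all tested miRNAs that were lowest there under TMM factors, or whose ratios turned, were not taken. On the log2 scale of TMM-scaled levels miR-322-3p was higher in library 1 by 1.52 and 2.83 than in libraries 2 and 3, and miR-503-3p by 1.91 and 2.74. MiR-503-5p was higher by 0.53 and 2.52 and miR-351-5p by 0.80 and 0.41, so only 2 of the 4 stayed more than 2-fold above both. The share of all tested miRNAs that did so under TMM factors was not taken, so this count is no result about the cluster. MiR-450a-5p was lower, at -2.75 and -1.86.

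**Figure D4:**
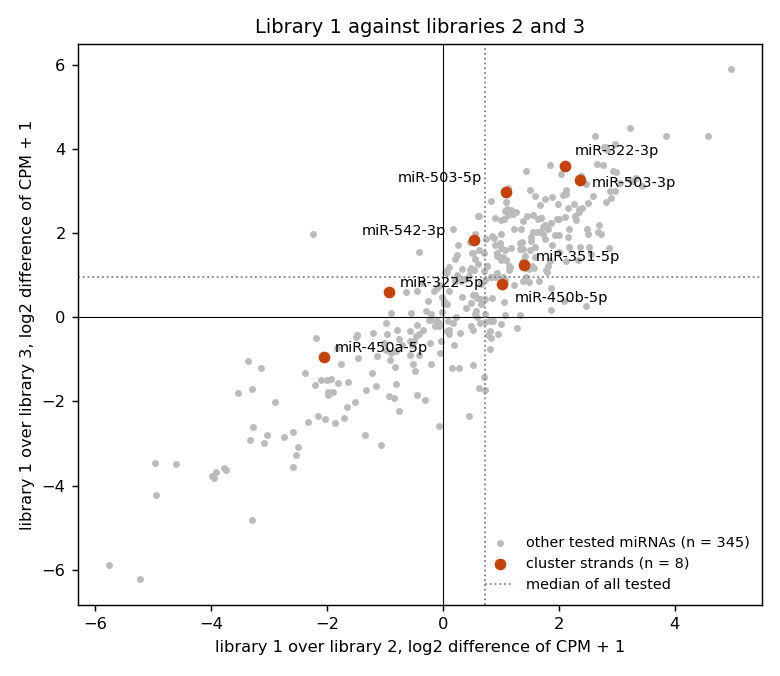
Difference between library 1 and library 2 (horizontal axis) and between library 1 and library 3 (vertical axis) on the scale of log2(CPM + 1), for the 8 cluster strands with at least 30 counts in all and the other miRNAs tested. Dotted lines mark the medians of all tested, 0.72 and 0.96, and the strands of the cluster spread from miR-450a-5p at the lower left to miR-322-3p and miR-503-3p at the upper right.

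Base composition was set beside these ratios. Over the 320 tested miRNAs with a RefSeq sequence, the G and C content correlated with the log2 ratio of library 1 to library 2 (Spearman rho 0.44) and of library 1 to library 3 (rho 0.31), a description across miRNAs that share libraries and depth. For the ratio of library 2 to library 3 rho was -0.14. In the cluster the G and C content was 62.5% in miR-351-5p, 56.5% in miR-503-5p, 50.0% in miR-503-3p and 47.6% in miR-322-3p, the tested members more than 2-fold higher in library 1. It was 40.9% in miR-322-5p and 31.8% in each of miR-542-3p, miR-450a-5p and miR-450b-5p. MiR-450b-3p, no member, had 36.4% and stood 3.10-fold and 4.21-fold higher in library 1 than in libraries 2 and 3. Under TMM factors its log2 ratios were 1.02 and 1.21. MiR-351-3p, also higher in library 1 but with too few counts to be tested, had 66.7%. Scaled to miRNA totals, miR-542-3p and miR-450b-5p were highest and miR-450a-5p was lowest in library 1, but under TMM and DESeq2 factors neither of the first pair was highest there. The part of base composition in the result was not tested.

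The seeds place the cluster's strands in larger pools, listed from RefSeq sequences. The strongest pool is that of miR-16-5p, which, like miR-15a and miR-15b, restrains cyclins and the survival factor Bcl2. MiR-322-5p shared its full seed with 9 other listed miRNAs, of which 5 had counts. MiR-322-5p gave 0.366%, 0.920% and 0.325% of the counts of this pool in libraries 1, 2 and 3, a mean of 0.537% ± 0.332 (SD, n = 3). It was 0.346% without library 2. With the shorter seed of bases 2 to 7, which admits miR-503-5p, the pair of miR-322-5p and miR-503-5p held 0.992% (Wilson 95% interval 0.841 to 1.17), 1.28% (1.07 to 1.54) and 0.409% (0.305 to 0.548). Most of the pool was miR-16-5p, at 4307, 3030 and 2973 CPM (92.5%, 83.4% and 88.6% of it), followed by miR-15b-5p at 252, 495 and 331 CPM and miR-15a-5p at 44.9, 30.9 and 15.0 CPM. MiR-195a-5p (5.98, 26.9 and 18.7 CPM) was below miR-322-5p in libraries 1 and 2 and above it in library 3, and miR-497a-5p (1.66, 5.62 and 2.80 CPM) was below it in each library. Of the 5 miR-15/16 miRNAs 4 had enough counts for the chi-square test, and all 4 were called, against the 90.1% of all miRNAs.

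MiR-351-5p held a larger part of its pool than miR-322-5p did. It gave 3.09% (Wilson 95% interval 2.76 to 3.45), 1.33% (1.08 to 1.62) and 3.17% (2.68 to 3.75) of the counts with the miR-125 seed, a family known from haematopoietic stem cells and macrophage activation. In library 2 this interval overlapped those of miR-322-5p (0.743 to 1.14) and of its pair with miR-503-5p (1.07 to 1.54). The rest was miR-125b-5p, at 2093, 1818 and 805 CPM, and miR-125a-5p, at 1027, 958 and 451 CPM, both called by the chi-square test like most miRNAs. The share of miR-351-5p was lowest in library 2, and the intervals of libraries 1 and 3 overlapped. No other listed miRNA with a RefSeq sequence had the seed of miR-542-3p, miR-450a-5p, miR-450b-5p, miR-322-3p or miR-503-3p. These strands were thus alone in their pools, as far as sequences were at hand.

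**Figure D5:**
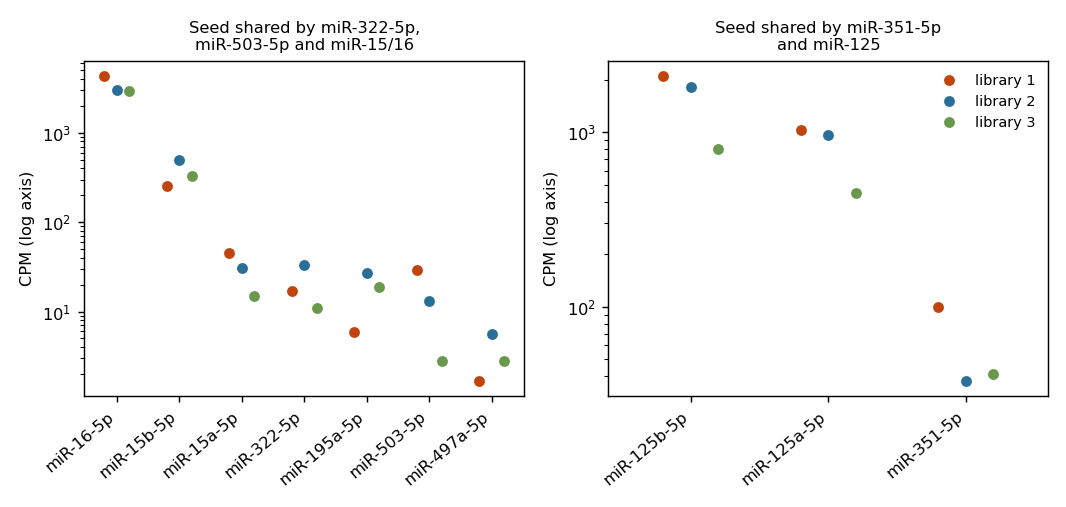
Levels in CPM, on log axes, of the miRNAs with counts that share bases 2 to 7 with miR-322-5p and miR-503-5p (left) and bases 2 to 8 with miR-351-5p (right), in libraries 1, 2 and 3. MiR-16-5p, at 2973 to 4307 CPM, stands far above miR-322-5p, at 10.9 to 33.3 CPM.

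Another group of X-chromosomal miRNA hairpins, hosted by the gene Clcn5, served for comparison. Its 10 strands in the tables summed to 12142, 3040 and 4749 CPM, above the cluster in every library, and most of this was miR-532-5p (10597, 2436 and 4204 CPM). The sum too was highest in library 1, but lowest in library 2, as were miR-532-5p and miR-501-3p. MiR-532-3p, miR-362-3p, miR-188-5p and miR-500-3p were highest in library 1 and lowest in library 3, as was the summed cluster. MiR-362-5p was lowest in library 1 and highest in library 2, at 1.99, 25.3 and 5.92 CPM. All 7 strands of the group that were tested were called, where 90.1% of all miRNAs were. In the Clcn5-hosted hairpin miR-501 the 3p strand prevailed, with 3787, 1183 and 1571 counts of miR-501-3p against 3, 7 and 2 of miR-501-5p. By the edgeR test miR-501, miR-362 and miR-500 passed toward the 3p strand, as did miR-542 (log2 ratios of 5p to 3p -8.98, -3.11 and -7.16). MiR-532 and miR-188 passed toward the 5p strand (8.98 and 8.66). Over all 157 hairpins 38.9% passed toward the 3p strand and 41.4% toward the 5p strand. A test of the difference between the groups was not made.

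The miRNAs nearest in profile to miR-542-3p, the highest member, were miR-3969, miR-106b-5p, miR-185-5p, miR-301a-3p and miR-30a-5p. Likeness was measured as the root mean square difference of centred log2(CPM + 1) over the 3 libraries, among 257 miRNAs outside the cluster with a mean of at least 10 CPM, and it ran from 0.030 to 0.13. MiR-185-5p, for example, stood at 886, 528 and 245 CPM, highest in library 1 and lowest in library 3 like miR-542-3p. With only 3 libraries many profiles are alike.

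Markers of the cell type were checked in the same libraries. All 6 myeloid miRNAs on the list (miR-21a-5p, miR-146a-5p, miR-155-5p, miR-142a-3p, miR-142a-5p and miR-223-3p) had counts in every library and summed to 71162, 344914 and 300101 CPM, lowest in library 1, where the cluster was highest. Most of each sum was miR-21a-5p (37316, 305278 and 261488 CPM) and miR-146a-5p (33401, 35012 and 36543 CPM). MiR-155-5p (74.8, 2388 and 829 CPM), miR-142a-3p (42.9, 1364 and 819 CPM) and miR-142a-5p (292, 818 and 389.6 CPM) were also lowest in library 1. MiR-223-3p, at 35.6, 52.6 and 33.0 CPM, and miR-146a-5p differed far less. Since the cluster is also known from muscle and stromal cells, 8 miRNAs of those cells were read too. They summed to 265, 155 and 156 CPM, mostly miR-199a-3p (223, 125.3 and 114 CPM). Of the 3 with enough counts for the chi-square test of levels only miR-199a-3p was called, where 90.1% of all miRNAs were. MiR-199a-5p (15.6, 14.5 and 19.3 CPM, chi-square adjusted p = 0.330) and miR-143-3p (20.9, 14.1 and 19.6 CPM, chi-square adjusted p = 0.157) were not. MiR-214-3p had 7, 4 and 2 counts. Of these 8, miR-206-3p, miR-1a-3p, miR-133a-3p and miR-145a-5p were at 0 in at least 1 library and had at most 7 counts in any. The 3 erythroid miRNAs summed to 89.7, 27.7 and 15.6 CPM, highest in library 1 and lowest in library 3, as was the summed cluster. Endothelial miRNAs (miR-126a-3p and miR-126a-5p) summed to 25.9, 44.6 and 25.2 CPM, the liver miRNA miR-122-5p stood at 322, 548 and 1500 CPM, and 4 epithelial miRNAs summed to 64.8, 436 and 275 CPM. The part of other cells in the levels of the cluster was not tested.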

How the data were processed

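Small RNA was sequenced as single-end reads of 50 bases. Bcl2fastq, BWA and mouse build mm10 are named in the submitters' processing notes, and the miRNA annotation, mismatch limits and handling of reads that match several miRNAs are not given in the sources used here. The authors deposited, for every library, a whole-number count per mature miRNA and beside it their normalized value, an RPM. The ratio of both columns puts the RPM denominators at 14047692, 13995845 and 14002577. Counts were scaled here to each library's miRNA total (CPM).

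Tests were a chi-square test of counts against library totals (summed count of at least 30), edgeR's (4.0.16) quasi-likelihood test of 5p against 3p strand with library as a term (at least 60), and a chi-square test of strand by library (expected counts of at least 5), each fitted on the whole table with Benjamini-Hochberg adjustment and tested on simulated data. Ratios of strands at 0 are taken against 3 counts and leave out the counting error of the strand that had counts. DESeq2 (1.42.0) served as an alternative. Sequences and seed pools came from RefSeq, which held 1623 of the 1915 names, and positions from GENCODE M21. Named miRNAs were, by rule, the members, the other strands of their hairpins, the comparison lists, the leading miRNAs of each seed pool and the 5 nearest profiles. Members and lists were chosen with earlier results of these data known.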

Additional observations from a re-analysis of the deposited data

How the results depend on the processing

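Most values kept their direction and their side of the threshold under the other settings. Leaving out 1 library gave 5 (of 7) to 8 (of 8) called members and 177 (of 288) to 284 (of 327) called miRNAs in all. Called strand shares were 0 (of 3) to 3 (of 4) in the cluster and 43 to 68 over all hairpins (of 82 to 85). Each of these counts was lowest without library 1. With DESeq2 size factors 7 of 8 members were called among libraries, without miR-450b-5p (adjusted p = 0.0678), beside 314 of 353 miRNAs in all. On the authors' RPM scale the cluster share was 0.00871%, since the denominators exceed the miRNA totals. The miR-503 strand ratio had no stable sign, from -0.40 to 0.37 on the log2 scale when 1 library was left out. Without the library term (no replicate block) it was -0.21, and 2 of 5 hairpins were called as before. Without library 2 the strand shares of miR-503 (adjusted p = 0.778), and without library 3 those of miR-450b (adjusted p = 0.170), no longer differed among libraries. In these 2 settings miR-351 could be tested too and was called, beside 66 of 82 and 68 of 85 hairpins in all. With expected counts of at least 1, the chi-square test of strand by library could cover miR-351 over all 3 libraries. It was called there as well (chi-square adjusted p = 0.000322). In that setting 88 of 103 hairpins (85.4%) were called, so this is no result about miR-351. MiR-503-5p was alone in its pool by bases 2 to 8 and made up 0.359% of it by bases 2 to 7. Low counts limit miR-503 in library 3 and both minor strands of miR-351 and miR-542.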
